A study of Mus musculus with 6 samples.

Results

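The genes described here are 7 members of the Slit-Robo and netrin guidance systems, measured in 3 mouse endothelial cell lines: the receptors Robo1, Robo2, Robo4 and Unc5b and the secreted ligands Slit2, Slit3 and Ntn4. They were given by name, and each was read from a probe set annotated to that symbol alone. All 7 were among the 19936 genes measured, each by 1 probe set. RNA of each line was hybridised on 2 whole-transcript microarrays, 6 arrays in all.

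Slits are secreted proteins that bind Robo receptors and steer growing axons, and netrins do so through Dcc, neogenin and the Unc5 receptors. Vessels use the same molecules: Robo1 and Robo2 take part in endothelial migration and sprouting, while Robo4, found mainly in endothelium, and its binding partner Unc5b are known for holding vessels stable. Netrin-4 is a basement membrane protein that binds laminin. Inside the cell these receptors act on actin through adaptors and actin-binding proteins.

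All 3 lines are endothelial cells derived from mouse embryonic stem cells, and their labels differ in the cadherin expressed: N-cadherin in line N, VE-cadherin in line VE, both in line VE+N. None of the labels names a treatment, and the culture was the same for all: 50000 cells seeded per square centimetre, 72 h at confluence, then 18 to 20 h of starvation in medium with 1% albumin. Each cadherin state is represented by 1 line, so a difference that belongs to the cadherin cannot be told apart from any other difference between the lines. Each line had 2 RNA extractions, called biological replicates in the titles, but whether they came from different cultures is not given in the sources used here. The p-values rest on the spread between these extracts, moderated towards the spread over all genes, and the spread between extracts may be technical. In such bulk RNA, fewer cells that express a gene and less RNA of it in each cell cannot be told apart.

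The array medians lay between 4.85 and 4.91 on the log2 scale, and the 2 arrays of 1 line differed over all genes with an SD of 0.185 to 0.244. The small number of arrays limits the precision. Cdh2, which encodes N-cadherin, averaged 7.67 ± 0.0120 (SD, n = 2) in line N, 6.69 ± 0.0105 in line VE+N and 5.86 ± 0.0933 in line VE. Cdh5, which encodes VE-cadherin, averaged 7.28 ± 0.0254, 7.10 ± 0.0832 and 6.94 ± 0.156 in the same order, so the line labelled N was not low in Cdh5 signal, and directions below rest on the labels. Of 15 endothelial markers, 14 lay above a dim reference on both arrays of each line, Sox17 being the exception. The dim reference is the 95th percentile of 1027 olfactory receptor genes, a family not known for a role in endothelium, and it lay between 4.27 and 4.41 on the 6 arrays. It is a guide only, since probe sets differ in their response.

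Robo1 showed by far the widest range of the 7 members. It was bright in line N and fell in both lines labelled with VE-cadherin, by a log2 difference of -4.25 in line VE and -5.59 in line VE+N. Its signal was 9.64 and 9.61 on the 2 arrays of line N, 5.42 and 5.33 in line VE, and 4.03 and 4.04 in line VE+N. No array of one line overlapped another line, and the arrays within a line differed by under 0.1. In line VE+N both arrays lay below the dim reference, whereas the 4 arrays of the other lines lay above it, so folds against line VE+N are given as lower bounds, with VE+N set at the reference.

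The VE minus N difference in Robo1 was -4.25 ± 0.0959 (SE), a 19.0-fold lower signal, with adjusted p = 3.51e-07 in limma. It ranked 11 among 19936 genes ordered from the largest fall. The VE+N minus N difference of the measured values was -5.59 ± 0.0959 (adjusted p = 1.99e-07), and the signal was at least 39.0-fold lower in VE+N. Against line VE, line VE+N was lower again by a measured log2 difference of -1.34 ± 0.0959 (adjusted p = 0.000128), at least 2.05-fold. The order of the lines was thus N above VE above VE+N, with each step past the threshold. The comparisons with line N share its arrays, so they are not independent of each other. In each of the 17 alternative fits, which included leaving out each array, all 3 Robo1 differences were called in the same direction.

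**Figure D1:**
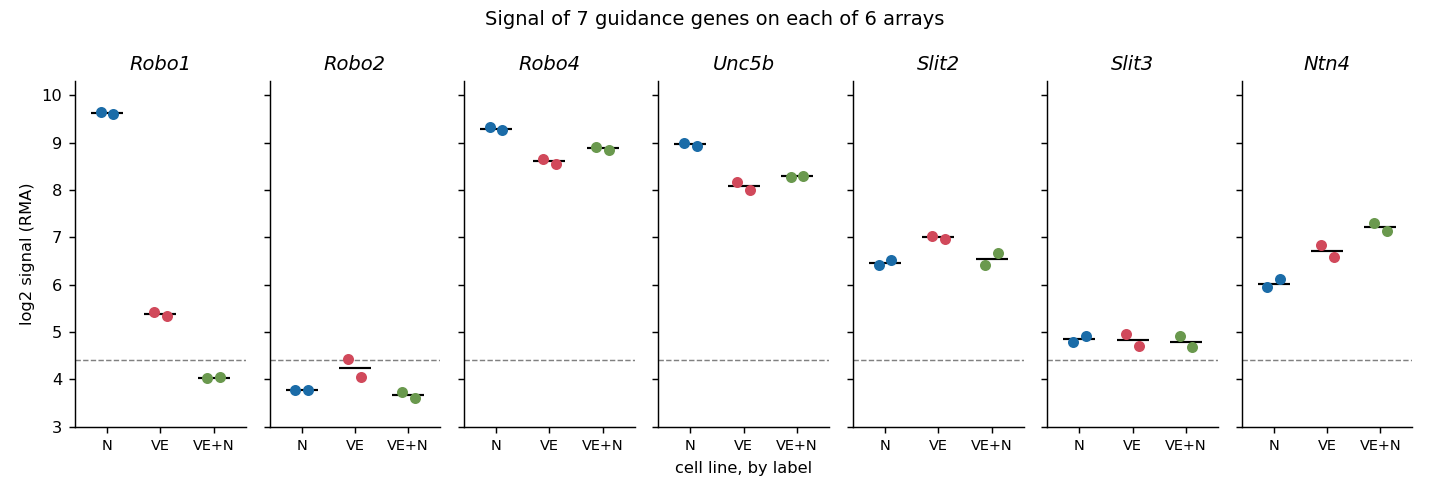
Log2 signal (vertical axis) of the 7 genes on the 2 arrays of each line (points, horizontal axis), with the line mean as a bar. The dashed line marks the dim reference at 4.41, the highest of the 6 arrays. Robo1 dropped from 9.63 in line N to 5.38 in VE and 4.03 in VE+N, Ntn4 went the other way, and Slit3 overlapped in all lines.

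Robo2, the close relative of Robo1 that also binds Slits, was dim throughout. Its signal was 3.78 and 3.77 in line N, 4.42 and 4.04 in line VE, and 3.73 and 3.61 in line VE+N. Of the 6 arrays, 1 lay above the dim reference, so these differences are between signals that may hold little Robo2 RNA. VE+N was lower than VE by -0.56 ± 0.138 (SE), adjusted p = 0.0410 in limma. It no longer passed without VE replicate 1 (-0.37, adjusted p = 0.201), VE+N replicate 1 (-0.62, 0.0798) or VE+N replicate 2 (-0.50, 0.173), and without N replicate 1 or N replicate 2 (-0.56 and adjusted p = 0.0632 each). The VE minus N difference was 0.46 (95% interval 0.139 to 0.778, adjusted p = 0.0639), and it passed without VE replicate 2, at 0.65 with adjusted p = 0.0302 by limma. It also passed at 0.46 with array weights (adjusted p = 0.0364 in limma), with the replicate block (0.0464) and without the dimmest 25% of genes (0.0430). The VE+N minus N difference was -0.10 (95% interval -0.419 to 0.219).

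Robo1 and Robo2 are next to each other among the protein-coding genes of chromosome 16 in the RefSeq annotation of GRCm38.p6, used here for gene order. Beside the steep fall of Robo1, Robo2 had no call against line N. Gbe1, the glycogen branching enzyme gene on the other side of Robo1, was lower by -0.56 in VE (adjusted p = 0.0377 in limma) and by -1.04 in VE+N (adjusted p = 0.00167) against line N. Robo4 and Robo3 are likewise neighbours on chromosome 9. Robo3 stayed between 4.38 and 4.66 on all arrays, and none of its 3 differences passed (adjusted p 0.602 to 0.838 in limma).

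Robo4, the endothelial Robo, was lower in both VE-cadherin lines than in line N, by far smaller steps than Robo1. It read 9.32 and 9.27 in line N, 8.66 and 8.55 in line VE, and 8.90 and 8.85 in line VE+N. The lines did not overlap, with N highest and VE lowest. The VE minus N difference was -0.69 ± 0.0987 (SE), 1.62-fold lower (adjusted p = 0.00237 in limma), and the VE+N minus N difference was -0.42 ± 0.0987, 1.34-fold lower (adjusted p = 0.0206). The latter call was lost without N replicate 1 (-0.40, adjusted p = 0.138), N replicate 2 (-0.44, 0.0973) or VE+N replicate 2 (-0.40, 0.0676). VE+N and VE did not differ past the threshold (0.27, 95% interval 0.0449 to 0.501, adjusted p = 0.141), but they did with a trended robust prior (adjusted p = 0.0415) or after removing the dimmer 50% of genes (0.0445).

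Unc5b, a netrin receptor that also binds Robo4, had its line means in the same order as Robo4. Its signal was 9.0 and 8.93 in line N, 8.16 and 7.99 in line VE, and 8.27 and 8.30 in line VE+N, with no overlap between lines. It was lower than in line N by -0.89 ± 0.105 (SE) in VE, 1.85-fold (adjusted p = 0.000906 in limma), and by -0.68 ± 0.105 in VE+N, 1.60-fold (adjusted p = 0.00286). Both calls stood in all 17 alternative fits. VE+N against VE gave 0.21 (95% interval -0.0318 to 0.455, adjusted p = 0.282).

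Since Robo1, Robo4 and Unc5b were all lower in both VE-cadherin lines than in line N, their start regions are shown. The windows run from 250 bases before to 50 after the annotated start, 5′ to 3′ on the gene's strand, from RefSeq on GRCm38.p6. All 7 members had a window in that table, and a gene can have other starts. Capitals mark every match, on either strand, to 9 short motifs. These were CGGAAG for ETS factors, GGAAAT, which shares with it only the letters GGAA, the E-box variants CACGTG or else CAGCTG or else CAGGTG, the AP-1 motif TGAGTCA, the forkhead motif TGTTTAC, the GC box GGGCGG and the TATA box motif TATAAA.
Robo1, chr16:72662899-72663198, plus strand: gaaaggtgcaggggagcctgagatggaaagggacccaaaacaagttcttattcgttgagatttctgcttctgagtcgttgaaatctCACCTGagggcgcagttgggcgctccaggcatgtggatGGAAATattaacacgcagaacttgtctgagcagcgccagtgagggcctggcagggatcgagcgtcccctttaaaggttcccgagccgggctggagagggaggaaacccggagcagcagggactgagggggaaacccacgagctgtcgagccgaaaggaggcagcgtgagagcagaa
Robo4, chr9:37401722-37402021, plus strand: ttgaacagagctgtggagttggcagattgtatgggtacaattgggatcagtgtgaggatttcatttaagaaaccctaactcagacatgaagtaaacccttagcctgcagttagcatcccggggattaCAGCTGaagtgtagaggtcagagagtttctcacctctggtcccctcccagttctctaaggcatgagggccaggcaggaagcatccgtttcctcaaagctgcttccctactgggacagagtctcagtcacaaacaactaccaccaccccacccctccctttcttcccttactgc
Unc5b, chr10:60831532-60831831, minus strand: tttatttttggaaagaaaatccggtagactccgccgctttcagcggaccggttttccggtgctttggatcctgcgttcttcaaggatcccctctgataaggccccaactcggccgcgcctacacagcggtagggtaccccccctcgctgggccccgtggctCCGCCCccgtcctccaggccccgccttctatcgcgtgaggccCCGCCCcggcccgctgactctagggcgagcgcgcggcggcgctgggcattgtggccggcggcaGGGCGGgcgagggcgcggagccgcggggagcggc

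The Robo1 window held 1 CAGGTG on the opposite strand at position -164 and 1 GGAAAT at -126, counted from the start. The Robo4 window held 1 CAGCTG. The Unc5b window held 3 GGGCGG matches. No motif was shared by the 3 windows, and no matches overlapped in them. Of 32851 windows of the same length, 20.2% held CAGGTG, 17.7% GGAAAT, 16.3% CAGCTG and 35.7% GGGCGG, and 16.9% held CGGAAG, 7.15% CACGTG, 5.2% TGAGTCA, 3.65% TGTTTAC and 13.6% TATAAA. GC content was 57.0% in the Robo1, 50.3% in the Robo4 and 69.7% in the Unc5b window, beside a median of 52.7% over all windows.

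Among the ligands, Slit2 was highest in line VE. It read 6.41 and 6.51 in line N, 7.03 and 6.97 in line VE, and 6.42 and 6.67 in line VE+N. The VE arrays lay above the other 4, and those of N and VE+N overlapped. The VE minus N difference was 0.54 ± 0.116 (SE), 1.45-fold higher (adjusted p = 0.0169 in limma), but the call was lost without any 1 of the 4 arrays compared: at 0.49 without N replicate 1 (adjusted p = 0.116), 0.58 without N replicate 2 (0.0644), 0.51 without VE replicate 1 (0.110) and 0.57 without VE replicate 2 (0.0806). VE+N was lower than VE by -0.45 ± 0.116 (adjusted p = 0.0477). That call was lost without N replicate 1 or N replicate 2 (-0.45, adjusted p = 0.0811 each), VE replicate 1 (-0.42, 0.217), VE replicate 2 (-0.48, 0.168) or VE+N replicate 1 (-0.33, 0.119). VE+N minus N was 0.09 (95% interval -0.180 to 0.354).

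No Slit3 difference passed the threshold. Its signal was 4.79 and 4.91 in line N, 4.95 and 4.71 in line VE, and 4.91 and 4.68 in line VE+N, so all lines overlapped and each array lay above the dim reference. The 95% intervals were -0.321 to 0.278 for VE minus N, -0.357 to 0.243 for VE+N minus N and -0.335 to 0.264 for VE+N minus VE.

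Slit2 and Slit3 each carry a copy of the microRNA gene miR-218, which is known to repress Robo1 and Robo2. The RefSeq entries place Mir218-1 within Slit2 on chromosome 5 and Mir218-2 within Slit3 on chromosome 11, and both give the same mature 5p strand, shown with its seed, bases 2 to 8, in capitals because it is the stretch that pairs with target RNAs.
mmu-miR-218-5p: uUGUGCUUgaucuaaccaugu

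Probe sets for both hairpins are on the array, and they were looked up after the members' values had been seen. Mir218-1 read 2.81 and 3.61 in line N, 3.26 and 3.77 in VE, and 3.37 and 3.03 in VE+N. Mir218-2 read 4.28 and 3.66, 3.61 and 3.82, and 3.91 and 3.82 in the same order. Neither rose above the dim reference on any array, and no difference passed (adjusted p 0.463 to 0.986 in limma). These probe sets match the hairpin gene, and the level of the mature microRNA was not measured.

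Ntn4, the basement membrane netrin, rose in the order N, VE, VE+N, the reverse of Robo1. It read 5.94 and 6.11 in line N, 6.84 and 6.58 in line VE, and 7.30 and 7.13 in line VE+N, with no overlap between lines. VE+N exceeded N by 1.19 ± 0.128 (SE), 2.29-fold (adjusted p = 0.000414 in limma), a call that stood in all 17 alternative fits. VE exceeded N by 0.69 ± 0.128, 1.61-fold (adjusted p = 0.00856), and this was lost without N replicate 1 (0.60, adjusted p = 0.0663) or VE replicate 1 (0.56, 0.0743). VE+N exceeded VE by 0.50 ± 0.128 (adjusted p = 0.0453), which was lost without any 1 of the 6 arrays: 0.50 without either N replicate (adjusted p = 0.0633), 0.63 without VE replicate 1 (0.0710), 0.38 without VE replicate 2 (0.253), 0.42 without VE+N replicate 1 (0.137) and 0.59 without VE+N replicate 2 (0.0861). In fits without an array, the lone array of a line is assumed to vary like the others.

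The members were chosen with earlier results of these data known, so the counts below describe them and are no test of enrichment. Counted together, 5 of the 7 members were called in VE minus N (2 higher, 3 lower), where 15.4% of all genes were called, 8.46% higher and 6.99% lower. In VE+N minus N there were 4 (1 higher, 3 lower), beside 19.1% of all genes, 10.2% higher and 8.91% lower. In VE+N minus VE there were also 4 (1 higher, 3 lower), beside 10.1%, 4.29% higher and 5.84% lower. Calls over 2-fold were 1, 2 and 1, Robo1 in each comparison and Ntn4 in VE+N minus N, beside 3.81%, 4.6% and 2.52% of all genes. The arrays of the lines compared did not overlap for 6, 5 and 6 members, beside 57.3%, 55.1% and 49.5% of all genes. Without N replicate 1 or VE replicate 1 the first count was 3, and the last was 1 or 2 without each array in turn. The VE+N minus VE calls of Robo2, Slit2 and Ntn4 were also lost with array weights (adjusted p = 0.0754, 0.0685 and 0.0824 in limma) and on the 4 arrays of these lines alone (0.0632, 0.0811 and 0.0633). The median log2 difference of the members was -0.02 in VE minus N, -0.10 in VE+N minus N and -0.04 in VE+N minus VE, beside -0.02, -0.00443 and 0.03 over all genes. By role, 3 of 4 receptors were lower and none higher against line N in both comparisons. Of the 3 ligands, 2 were higher in VE and 1 in VE+N, and none was lower.

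**Figure D2:**
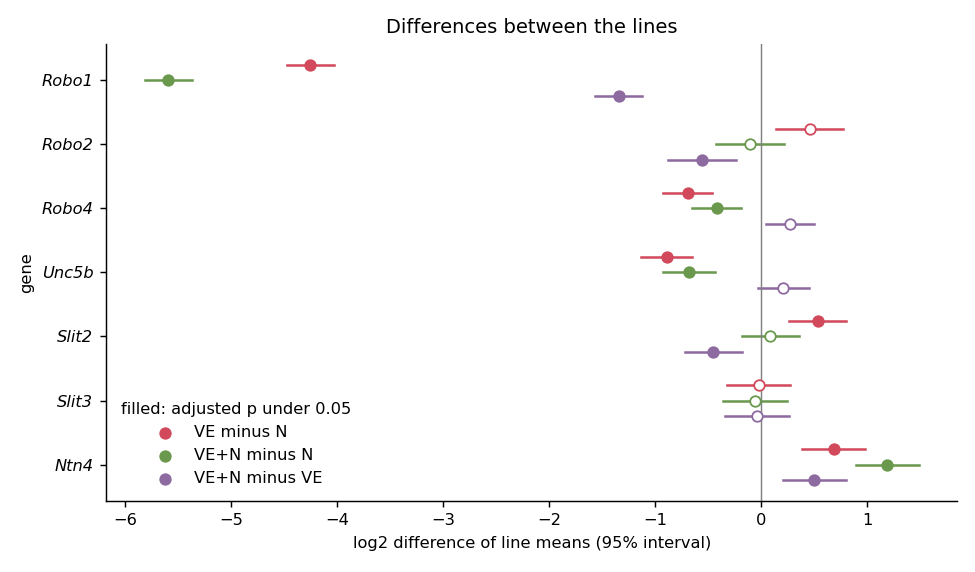
Log2 difference of line means (horizontal axis) for each member (vertical axis) in the 3 comparisons, with 95% intervals from the limma fit. Filled points passed adjusted p 0.05. Robo1 stands at -4.25, -5.59 and -1.34, while no other member differed by more than 1.19.

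For Robo1 and Ntn4, whose line means spanned over 1 log2 unit, the nearest genes were sought by the root mean square distance of mean-centred values over the 6 arrays. Nearest to Robo1 was Igfbp5, a secreted binding protein of insulin-like growth factors, at a distance of 0.193. Igfbp5 read 12.23 and 12.24 in line N, 7.88 and 7.59 in VE, and 6.17 and 6.23 in VE+N. Next were the immune receptor genes Lilr4b (0.351) and Lilrb4a (0.354), near-identical copies whose probe sets cannot be assigned to 1 gene with certainty, the stem cell factor receptor Kit (0.402) and the nitric oxide synthase regulator Nostrin (0.408). Nearest to Ntn4 were the kinase gene Map3k9 (0.0583), Tmbim4 (0.0834), Btbd19 (0.0878), Ier5 (0.0897) and Ace, angiotensin-converting enzyme (0.0907). These distances describe 6 arrays of 3 lines.

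**Figure D3:**
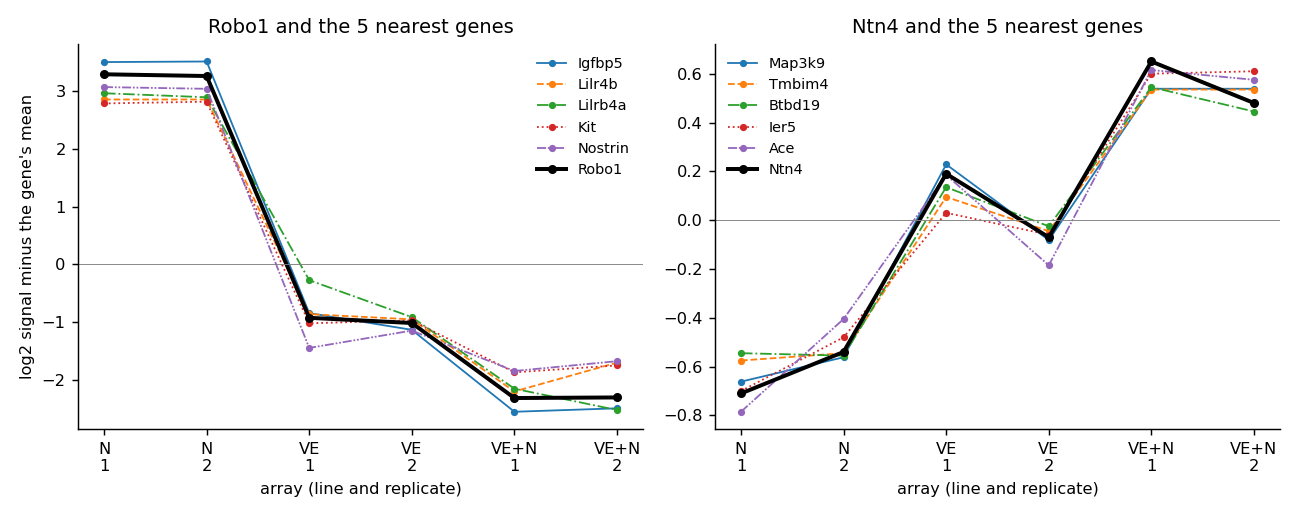
Log2 signal minus each gene's mean (vertical axis) on the 6 arrays (horizontal axis) for Robo1 and Ntn4 (black) and the 5 genes nearest to each. Igfbp5 runs closest to Robo1 and Map3k9 closest to Ntn4, at distances of 0.193 and 0.0583.

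The other genes of the pathway were taken from a list of 57, of which 54 were measured. This list too was chosen with earlier results of these data known, so its shares, whole or by class, are no test of enrichment. In VE minus N 18 of them were called (10 higher, 8 lower), or 33.3% beside 15.4% of all genes. In VE+N minus N 16 were called (6 higher, 10 lower), or 29.6% beside 19.1%, and in VE+N minus VE 12 (4 higher, 8 lower), or 22.2% beside 10.1%. Their median differences were -0.01, -0.05 and -0.01.

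Among the other netrins, Ntn1, the netrin best known in axon guidance, was lower than in line N in both lines. Its signal was 8.73 and 8.51 in line N, 8.05 and 7.87 in VE, and 7.89 and 7.71 in VE+N. The difference was -0.66 ± 0.125 (SE) for VE (adjusted p = 0.00916 in limma) and -0.82 ± 0.125 for VE+N (adjusted p = 0.00261), so Ntn1 and Ntn4 went in opposite directions. Ntn3, Ntn5, Ntng1 and Slit1 were called in no comparison, with signals of 4.55 to 4.87, 4.14 to 4.45, 5.66 to 6.02 and 4.26 to 4.77.

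Of the 7 other receptors, Neo1, neogenin, which binds netrins and repulsive guidance molecules, was called in every comparison and none of the remaining 6 in any. This is 14.3% in each comparison, near the 15.4%, 19.1% and 10.1% of all genes called. Neo1 read 10.88 and 10.84 in line N, 10.01 and 9.99 in VE, and 9.46 and 9.58 in VE+N, the order of lines seen for Robo1. VE minus N was -0.86 ± 0.0989 (SE, adjusted p = 0.000790 in limma), VE+N minus N was -1.34 ± 0.0989 (adjusted p = 5.63e-05) and VE+N minus VE was -0.48 ± 0.0989 (adjusted p = 0.0193). Dcc, the classical netrin receptor, Unc5d and Dscam lay below the dim reference on all 6 arrays, and Unc5c lay above it on 1. Unc5a ran from 4.42 to 4.76.

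Of 16 ligands and binding partners, 10 were called in VE minus N (8 higher, 2 lower), 9 in VE+N minus N (5 higher, 4 lower) and 6 in VE+N minus VE (2 higher, 4 lower). These are 62.5%, 56.2% and 37.5%, beside 15.4%, 19.1% and 10.1% of all genes. Flrt2 and Flrt3, membrane proteins that bind Unc5 receptors, were higher in line VE+N than in line N by 1.79 ± 0.0976 (SE) and 1.58 ± 0.111. Flrt1 went the other way, by -1.33 in VE+N minus N and -1.23 in VE minus N (adjusted p = 0.00224 and 0.00419 in limma). Flrt2 read 8.89 and 8.92 in line N, 9.73 and 9.83 in VE, and 10.68 and 10.72 in VE+N, the same order as Ntn4. Line VE had more of Sdc4, a syndecan carrying heparan sulfate, to which Slits bind, by 1.63 ± 0.105, and of Rgma, a ligand of neogenin, by 1.39 ± 0.121. Sdc2, another syndecan, read 7.01 and 7.22 in line N, 7.96 and 8.04 in VE, and 5.90 and 5.69 in VE+N, and so was lower in VE+N than in VE by -2.20 ± 0.121.

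Among 31 inner effectors 7, 6 and 5 were called in the 3 comparisons, or 22.6%, 19.4% and 16.1% beside the same 15.4%, 19.1% and 10.1% of all genes, so in VE+N minus N their share was close to that of all genes. Enah, which extends actin filaments and binds the Robo1 tail, was highest in VE and lowest in VE+N: it read 5.90 and 6.04 in line N, 7.25 and 7.19 in VE, and 4.95 and 4.61 in VE+N. VE+N was lower than VE by -2.44 ± 0.132 (SE), VE exceeded N by 1.25 ± 0.132 and VE+N was below N by -1.19 ± 0.132. Srgap3, one of the Slit-Robo GTPase-activating proteins, was above the dim reference in line VE alone, at 5.61 and 6.01, against 4.13 and 4.19 in N and 4.24 and 4.09 in VE+N, by 1.65 ± 0.143 over N and -1.65 ± 0.143 in VE+N minus VE, which are at least 2.82-fold and 2.78-fold with the dim lines at the reference. Nck2, an adaptor between receptors and actin, was lower in VE+N, at 5.14 and 5.61, than in N, at 7.54 and 7.60, by -2.20 ± 0.165, and than in VE, at 7.64 and 7.39, by -2.14 ± 0.165. Ablim1, an actin-binding protein, fell from 7.41 and 7.5 in N to 5.73 and 5.74 in VE and 5.53 and 5.52 in VE+N, by -1.72 and -1.93, each ± 0.0961. The adjusted p-values of the differences given with an SE for these genes, from Flrt2 to Ablim1, lay between 6.37e-06 and 0.000503 in limma.

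**Figure D4:**
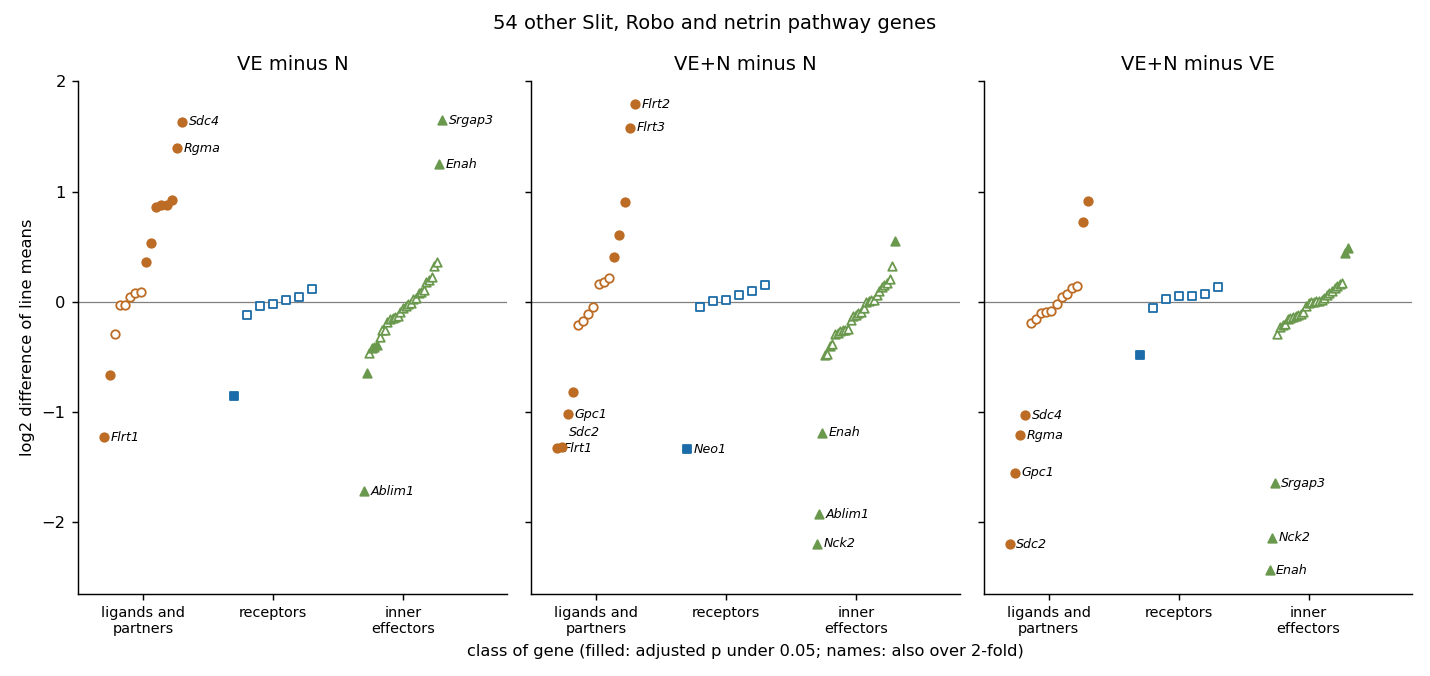
Log2 difference of line means (vertical axis) of the 54 other pathway genes by class (horizontal axis) in the 3 comparisons. Filled symbols passed adjusted p 0.05 and named ones also changed over 2-fold. In VE+N minus VE all 7 named genes were lower, with Enah lowest at -2.44. Among the 7 receptors Neo1 alone was called there (14.3%, beside 10.1% of all genes).

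Some cell type markers differed between the lines too. Over all genes, 15.4% were called in VE minus N, 19.1% in VE+N minus N and 10.1% in VE+N minus VE. Of the 15 endothelial markers 3 were higher and 2 lower in VE minus N, 6 and 0 in VE+N minus N and 7 and 0 in VE+N minus VE, where their median difference was 0.42. Their summed linear signal was 24160 to 24260 in line N, 21980 to 22500 in VE and 28930 to 31780 in VE+N. Their mean log2 signal was 9.206 to 9.211, 9.518 to 9.566 and 10.12 to 10.22 in the same order. Both were highest in VE+N, as were Ntn4 and Flrt2, but N lay above VE by the sum and below it by the mean. Of 12 mural cell markers 0 were higher and 4 lower in VE minus N, 0 and 7 in VE+N minus N and 0 and 3 in VE+N minus VE, and their summed linear signal was 2649 to 2705 in line N, 1609 to 1799 in VE and 1020 to 1098 in VE+N, the order of lines seen for Robo1. Pdgfrb, Rgs5, Cspg4, Kcnj8, Abcc9 and Cnn1 were not above the dim reference in VE+N, and Rgs5, Tagln and Cnn1 were not in N. Of 10 fibroblast markers 8 were higher and 1 lower in VE minus N, 0 and 5 in VE+N minus N, and 0 and 9 in VE+N minus VE at a median difference of -3.19, with sums of 682 to 717 in line N, 3751 to 4126 in VE and 266 to 321 in VE+N, and Lum was above the reference in no line, nor were Dcn, Fap, Postn and Dpt in VE+N. Fibroblast markers were thus lowest in VE+N and highest in VE, as were Enah, Sdc2 and Gpc1. Robo1, Robo2, Slit2, Nck2, Srgap3, Sdc4, Rgma and Neo1 were also called lower in VE+N minus VE. Ntn4, Flrt2, Flrt3, Nck1 and Fyn were called higher there. The calls of Robo2, Slit2 and Ntn4 were lost in several alternative fits, and Robo2 was dim. In VE minus N, most fibroblast markers were higher, as were Slit2, Srgap3, Sdc4, Rgma, Ntn4, Flrt2 and Flrt3. Robo1, Neo1 and Fyn were lower in VE minus N, and Robo2, Nck2 and Nck1 were not called. Of 10 neural markers 2 were higher and 1 lower in VE minus N, 2 and 2 in VE+N minus N, and 1 and 2 in VE+N minus VE. Their sums were 1155 to 1212, 398 to 414 and 536 to 562. Of the 10, 3, 5 and 3 lay above the reference on both arrays. Their mean log2 signal was 4.803 to 4.861, 4.793 to 4.835 and 4.585 to 4.665, so the larger sum in N rests on few genes. Of 7 blood markers 0 were higher and 1 lower in each of the 3 comparisons, near the share of all genes. Their sums were 3076 to 3089, 954 to 1230 and 460 to 480. Only 2, 2 and 1 of the 7 lay above the reference on both arrays, so these sums rest on few genes. Of 8 embryonic stem cell markers none was called in any comparison, with sums of 157 to 160, 153 and 128 to 165. Pou5f1, Sox2, Zfp42, Tdgf1 and Esrrb were not above the reference in any line. Nanog and Fgf4 lay above it on both arrays of each line, and Dppa5a did so in N alone. Whether cells of these other types were present was not tested, and neither was any part they had in the differences above.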

How the data were processed

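The values analysed were the authors' deposited log2 signals, which per the submitters' processing notes came from RMA, run in Partek 6.3. Background correction, quantile normalization and a summary for each probe set are its steps, and both normalization and dim signal can compress differences. The log2 scale was read from the values. Per the labels, labelling started from 150 ng of RNA. No genome build is given for the values in the sources used here.

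Of 35556 probe sets, 21789 carried 1 symbol. Symbols were updated by Entrez identifier (21698) or accession (3), and the brightest probe set was taken for the 1001 genes with several, which left 19936 genes. Lines were compared with limma 3.58.1 in R 4.3.3, two-sided, as contrasts of line means over all 6 arrays (3 residual and 4.89 prior degrees of freedom), with Benjamini-Hochberg adjustment over all genes. A gene was called at adjusted p under 0.05. Values after ± are SE of a difference or SD of a level, as stated.

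The members and lists were chosen with earlier results of these data known. Named were the members, Cdh2 and Cdh5, their Robo, Slit, Unc5, netrin, Dcc and Neo1 relatives, up to 4 called list genes of largest change per comparison, and the 5 genes nearest to a member spanning over 1 log2 unit. Gbe1, Flrt1, Gpc1, Nck1, Fyn, the hairpins, Dscam and the cell type markers stand outside this rule. The fit was tested on simulated data. With raw residual SDs and small changes it missed most of the smaller ones. The simulation was then redone with moderated SDs and larger changes of 1 and 2 log2 units. Of these 99.7% and 100% were recovered, but 7.4% of the calls were false, more than the nominal share. Most called differences of the members were under 1 log2 unit, so this recovery does not bear on them. Alternatives were fits on 4 arrays, a replicate block, array weights, a trended robust prior, median centring, a further quantile normalization, leaving out the dimmer 25% or 50% of genes, other probe set rules, the methods' analysis of variance, a fold over 2 and each array left out.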

Additional observations from a re-analysis of the deposited data

How the results depend on the processing

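Of 351 differences recomputed for the 7 members under up to 17 alternatives, 299 kept direction and side of the threshold, 38 lost the call, 6 gained it and 8 changed sign, the last for Slit2 and Slit3 differences that were not called. The sign changes were at 0.0336 for Slit3 VE+N minus VE with quantile normalization again and otherwise without 1 array, which gave Slit2 VE+N minus N from -0.0367 to 0.211 and Slit3 from -0.142 to 0.0984 for VE minus N, from -0.175 to 0.0608 for VE+N minus N and from -0.156 to 0.0844 for VE+N minus VE. Of the members, 3 were called in VE minus N with the methods' analysis of variance, adjusted by Benjamini-Hochberg, and 1 over 2-fold, 2 over 2-fold in VE+N minus N, and in VE+N minus VE 1 with array weights, with the analysis of variance, with only the 4 arrays of these lines or over 2-fold, and 2 with the replicate block. Without 1 array the counts were 3 to 5, 3 to 4 and 1 to 2. By the methods' rule of unadjusted p under 0.05 and over 2-fold, Robo1 passed in all comparisons and Ntn4 in VE+N minus N. Of all genes, 3.77% passed this rule in VE minus N, 4.56% in VE+N minus N and 2.47% in VE+N minus VE. Of the other pathway genes, the analysis of variance called 10 in VE minus N, 11 in VE+N minus N and 4 in VE+N minus VE. Over 2-fold, 6, 9 and 7 were called in the same order, beside 3.81%, 4.6% and 2.52% of all genes. These shares also stand beside the members' counts over 2-fold. The share of all genes called with the analysis of variance is not given here. The over 2-fold counts are lower by construction and fits without arrays have fewer samples. Otherwise the cause was not tested. Each member had 1 probe set, so the other probe set rules could not change its differences. Leaving out an array of the line not compared repeated the fit on the 4 arrays of the lines compared. These fits are therefore not separate checks, and the totals above count them all. The titles' replicate numbers are shared by the lines, but deviations of same-numbered arrays correlated at -0.00504, 0.124 and 0.0689, so the numbers were not taken to pair the arrays. With the replicate block, Slit2 and Ntn4 in VE+N minus VE lost their calls (adjusted p = 0.0514 and 0.0533 in limma) and Robo2 in VE minus N gained one (0.0464). Without the dimmest 50% of genes, Robo2 and Slit3 were not tested. Dim signal limits Robo2, and Robo1 in line VE+N.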
